A study of Mus musculus with 11 samples.

Results

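Hemoglobin transcripts were followed in single-cell libraries of mouse retina through the 4 genes that the count matrix lists for the adult chains: the α-chain copies *Hba-a1* and *Hba-a2*, and the β-chain copies *Hbb-bs* and *Hbb-bt*. They were 4 of 25311 genes, and all 4 had unique molecular identifiers (UMIs, each meant to count 1 captured RNA molecule). The genes were chosen by their UMI counts in these libraries, where they vary widely between mice, so their levels are given as a description. The retinas came from 11 C57BL/6J mice at postnatal day 10. Control mice received PBS (n = 3), and their littermates received streptozotocin (STZ), which destroys insulin-producing cells and raises blood glucose, as a model of Phase I retinopathy of prematurity (Phase I ROP, n = 3). Another set of littermates also received STZ and was divided between 2 cages, where the dams ate a diet enriched in ω-3 (n = 2) or ω-6 (n = 3) long-chain polyunsaturated fatty acids, so that cage and diet cannot be told apart and no mouse without STZ was on either diet. Anterior segment and pigment epithelium were dissected away, and the tissue was dissociated with papain and captured in droplets with inDrop v3.

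Hemoglobin is the oxygen carrier of red blood cells and consists of a pair of α chains and a pair of β chains, each around a heme group. Red cell precursors make these chains in very large amounts under the transcription factors GATA1 and KLF1. Red cells of mammals lose their nucleus, but young ones, the reticulocytes, still hold globin mRNA when they enter the circulation. The retina is a vascularized tissue, and its vessels carry red cells close to neurons and Müller glia.

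After droplets with 300 or fewer genes were set aside, 20033 droplets remained, 787 to 2618 per mouse, with total UMIs per mouse from 2563064 to 6516478 and median genes per droplet from 674 to 1146. Classes were named from markers of retinal cell types and held 9967 rod, 3596 bipolar, 3287 amacrine, 1425 Müller glia and 1126 cone droplets, each class meaning droplets that resemble that cell type by its markers. Smaller classes resembled endothelial cells (113 droplets), ganglion cells (96), pigment epithelium (75), microglia (59), astrocytes (47) and horizontal cells (31), and 211 droplets matched no marker set. Some rod clusters were named only from the share of their droplets with rod markers. Libraries shared 1157 of 18872 distinct barcodes, more than 1 library having used the same sequence.

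Both chains are encoded by a pair of near-identical copies, which limits how far reads can be told apart. In the GENCODE M21 annotation of GRCm38, *Hba-a1* lies at chr11:32283511-32284465 and *Hba-a2* at chr11:32296489-32297298, both on the plus strand. *Hbb-bs* lies at chr7:103826534-103828096 and *Hbb-bt* at chr7:103812524-103813996, both on the minus strand. Each gene has 3 exons. The coding sequences of *Hba-a1* and *Hba-a2* (429 bases each) differ by 1 base, C381T, and those of *Hbb-bs* and *Hbb-bt* (444 bases each) also by 1 base, C417T, counted from 1 at the first base of the start codon, with the base of the first-named copy given first. The 51 coding bases around each difference are shown here because they hold the only coding base that separates the copies, which is in capitals.
Hba-a1: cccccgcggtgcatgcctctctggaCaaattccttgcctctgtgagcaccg
Hba-a2: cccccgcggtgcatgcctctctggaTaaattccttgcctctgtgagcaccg
Hbb-bs: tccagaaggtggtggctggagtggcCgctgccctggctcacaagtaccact
Hbb-bt: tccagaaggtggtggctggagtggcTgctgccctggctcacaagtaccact

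Past the stop codon, the α and the β copies differed in how well they can be separated. All 44 stretches of 31 bases after the stop codon of the annotated *Hba-a1* transcript were also present in *Hba-a2*, whereas *Hbb-bs* and *Hbb-bt* shared none of their 101 and 102 such stretches. Over the whole transcripts, 71.3% of the 31-base stretches of *Hba-a1* occurred in *Hba-a2* and 66.9% of those of *Hbb-bs* in *Hbb-bt*. No stretch was shared between *Hba-a2* and *Hbb-bs*. inDrop reads come from near the 3′ end, so the division of UMIs between *Hba-a1* and *Hba-a2* is uncertain, and that between the β copies is less so.

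The promoters are shown as background on the 4 genes, and no link between them and the levels across mice was tested. All 4 had an entry among RefSeq promoters of GRCm38.p6, and the 250 bases before each RefSeq start are printed in the direction of transcription: chr11:32283422-32283671 (plus strand) for *Hba-a1*, chr7:103827929-103828178 (minus strand) for *Hbb-bs* and chr7:103813924-103814173 (minus strand) for *Hbb-bt*. Capitals mark, on either strand, GATAA (the core recognized by GATA1), CACCC (the box bound by KLF1), CCAAT (a box found in many promoters) and ATATAA (the searched form of the TATA box).
Hba-a1: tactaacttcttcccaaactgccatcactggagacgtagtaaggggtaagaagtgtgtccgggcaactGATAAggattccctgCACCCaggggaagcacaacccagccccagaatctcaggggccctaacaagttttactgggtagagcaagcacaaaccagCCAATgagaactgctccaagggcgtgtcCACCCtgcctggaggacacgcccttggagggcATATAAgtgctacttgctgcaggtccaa
Hbb-bs: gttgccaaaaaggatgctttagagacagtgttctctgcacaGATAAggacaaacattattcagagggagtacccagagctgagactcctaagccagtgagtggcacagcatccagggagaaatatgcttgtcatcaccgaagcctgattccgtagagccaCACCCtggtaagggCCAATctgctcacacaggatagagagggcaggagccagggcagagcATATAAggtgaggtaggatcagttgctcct
Hbb-bt: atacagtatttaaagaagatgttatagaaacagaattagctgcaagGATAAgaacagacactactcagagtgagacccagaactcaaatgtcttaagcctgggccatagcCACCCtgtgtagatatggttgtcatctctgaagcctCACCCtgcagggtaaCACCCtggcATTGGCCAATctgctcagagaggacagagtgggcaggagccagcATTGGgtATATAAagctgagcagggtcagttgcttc

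The *Hba-a2* window is not printed because it was identical to that of *Hba-a1* over 297 bases of their 300-base entries, shifted by 3 bases. Each of the 4 windows held all 4 motifs, and no 2 sites overlapped. GATAA was present in 22.6% of all 32851 promoter windows of the same length, CACCC in 52.0%, CCAAT in 33.8% and ATATAA in 9.10%. All 4 together were present in 153 windows (0.466%). The TATA motif began 28 bases before the RefSeq start in *Hba-a1*, 30 in *Hbb-bs* and 29 in *Hbb-bt*. The GENCODE start lies before the RefSeq start, by 161 bases in *Hba-a1*, 3 in *Hba-a2*, 168 in *Hbb-bs* and 73 in *Hbb-bt*. That part of each window is therefore within the gene coordinates given above. *Hbb-bt* held 3 CACCC and 3 CCAAT sites, against 1 of each in *Hbb-bs*. These matches describe the letters in the windows and say nothing of binding in these retinas.

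Hemoglobin UMIs were very unevenly spread over droplets. The 4 genes together had 20540 UMIs, and 767 of 20033 droplets (3.83%) had at least 1. Of those, 604 had exactly 1 UMI, 105 had 2, 23 had 3 and 19 had 4 to 9. A further 8 droplets had 10 to 68 UMIs, and 8 had 1239 to 5210, with none in between. These last 8 droplets held 19305 UMIs, or 94.0% of all hemoglobin UMIs, and the remaining 1235 UMIs were in 759 droplets (3.79%). The share in the 8 droplets was alike for the 4 genes, at 96.0% of *Hba-a1*, 95.2% of *Hba-a2*, 91.9% of *Hbb-bs* and 94.4% of *Hbb-bt* UMIs.

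**Figure D1:**
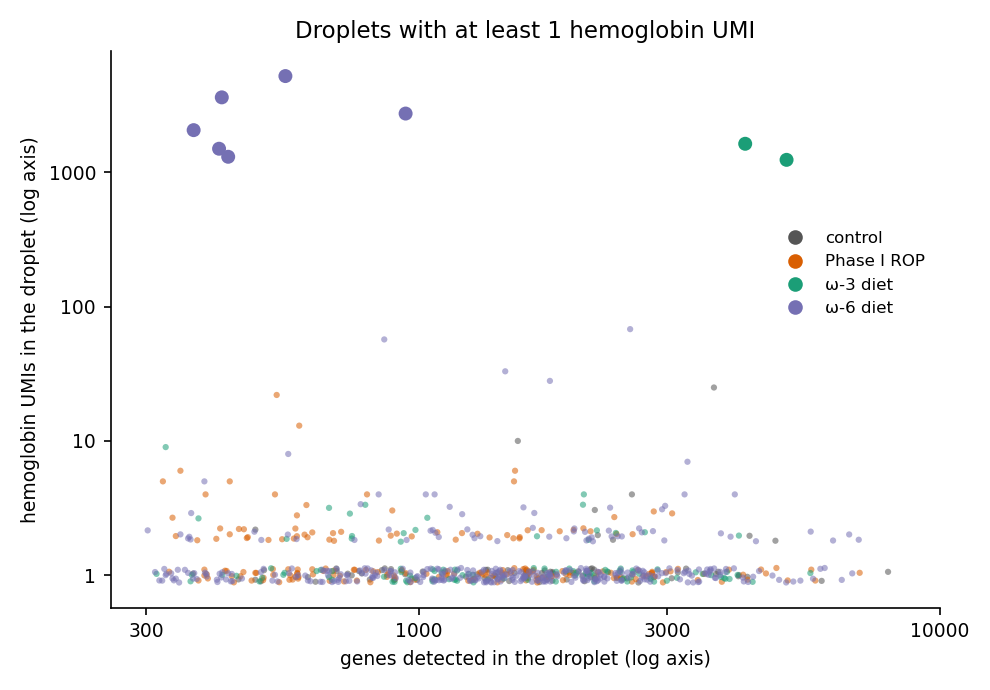
Each point is a droplet with at least 1 hemoglobin UMI, plotted by genes detected (x, log axis) and hemoglobin UMIs (y, log axis, with counts of 1 to 3 spread slightly so that points separate), in the colour of its group. The 8 large points above 1000 UMIs are from the ω-6 diet (370 to 944 genes) and the ω-3 diet (4233 and 5082 genes), and no droplet lies between 68 and 1239 UMIs.

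The 8 hemoglobin-rich droplets came from 3 of the 11 mice, all on a diet: 2 from ω-3 replicate 2, 3 from ω-6 replicate 2 and 3 from ω-6 replicate 3. None was found in control or Phase I ROP mice or in replicate 1 of either diet. The 6 from the ω-6 diet had few genes (370 to 944), and hemoglobin made up 60.8% to 81.8% of their UMIs. The 2 from the ω-3 diet had 4233 and 5082 genes, and hemoglobin made up 12.5% and 6.54% of their UMIs. The median droplet of these 3 libraries had 967 to 1116 genes.

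The 6 low-gene droplets were rich in hemoglobin and held some, but not all, of the other red cell transcripts looked up. *Alas2*, the erythroid enzyme that starts heme synthesis, had 62 UMIs in all libraries, and 52 of them (83.9%) were in 7 of the 8 droplets. In the 6 low-gene droplets it had 3 to 14 UMIs each, 41 in all. Of the 2 gene-rich droplets 1 held 11, and droplets of the same 3 mice outside the 8 held 6. *Bpgm*, which makes the 2,3-bisphosphoglycerate that lowers the oxygen affinity of hemoglobin, had 50 UMIs in 5 of the 6. Its share of non-hemoglobin UMIs in the 6 was 57.5 times that in droplets of these mice outside the 8. The mitochondrial iron importer *Slc25a37* had 21 UMIs in 2 of the 6. The erythroid genes *Hemgn*, *Epb42*, *Klf1*, *Rhag* and *Ermap* had 0 UMIs in the 6. These genes were looked up from the fixed lists, and the ratios are descriptions of 6 droplets with 8260 non-hemoglobin UMIs between them.

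The clustering put all 6 low-gene droplets into rod clusters, although they carried few rod UMIs. They had 3 to 82 UMIs of rod markers each, over 2 to 8 of the 10 rod markers. By a score of markers per droplet, only 1 of the 8 hemoglobin-rich droplets was called rod. In a clustering without the hemoglobin and erythroid genes, 5 of them were in rod clusters. Of the 2 gene-rich droplets, 1 resembled an amacrine cell (14 UMIs of *Gad1*, which makes the transmitter GABA) and held 11 *Alas2* UMIs, and 1 resembled an endothelial cell (48 UMIs of the tight junction gene *Cldn5*) and held 0 *Alas2* UMIs.

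All 4 transcripts were present in each of the 8 hemoglobin-rich droplets. Each held both α and both β copies, from 214 to 1173 UMIs of *Hba-a1*, 290 to 1191 of *Hba-a2*, 387 to 1678 of *Hbb-bs* and 155 to 1168 of *Hbb-bt*. Summed over the 8, α UMIs were 0.821 times β UMIs, with 0.462 to 1.40 in single droplets, so that α UMIs outnumbered β UMIs in some and not in others. *Hba-a1* was below *Hba-a2* in 8 of 8 droplets, with a summed ratio of 0.914. *Hbb-bs* was the more abundant β copy in each, and *Hbb-bt* made up 34.9% of β UMIs (26.2% to 41.0%). UMIs were compared between genes without scaling to length, since a UMI is meant to count a captured molecule once whatever its length.

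Outside these 8 droplets the chains were rarely seen together, as is usual where most counts are 1. Of the 759 droplets, 573 had β UMIs only, 148 had α UMIs only and 38 had both. The α to β ratio was 0.483 over their summed UMIs, and *Hbb-bt* made up 26.5% of β UMIs. Of the 186 droplets with α UMIs, 46 held equal counts of both copies, 47 held *Hba-a1* only and 83 *Hba-a2* only. Both β copies were present in 45 of the 611 droplets with β UMIs. Whether 1 molecule was counted for both α copies was not tested, so α counts and α to β ratios are uncertain to that extent. Of the 8 droplets with 10 to 68 UMIs, 6 had no *Hbb-bt* UMI. The highest of these without *Hbb-bt* had 24 *Hba-a1*, 29 *Hba-a2* and 4 *Hbb-bs* UMIs, an α to β ratio of 13.2, which is outside the range of the 8 hemoglobin-rich droplets.

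**Figure D2:**
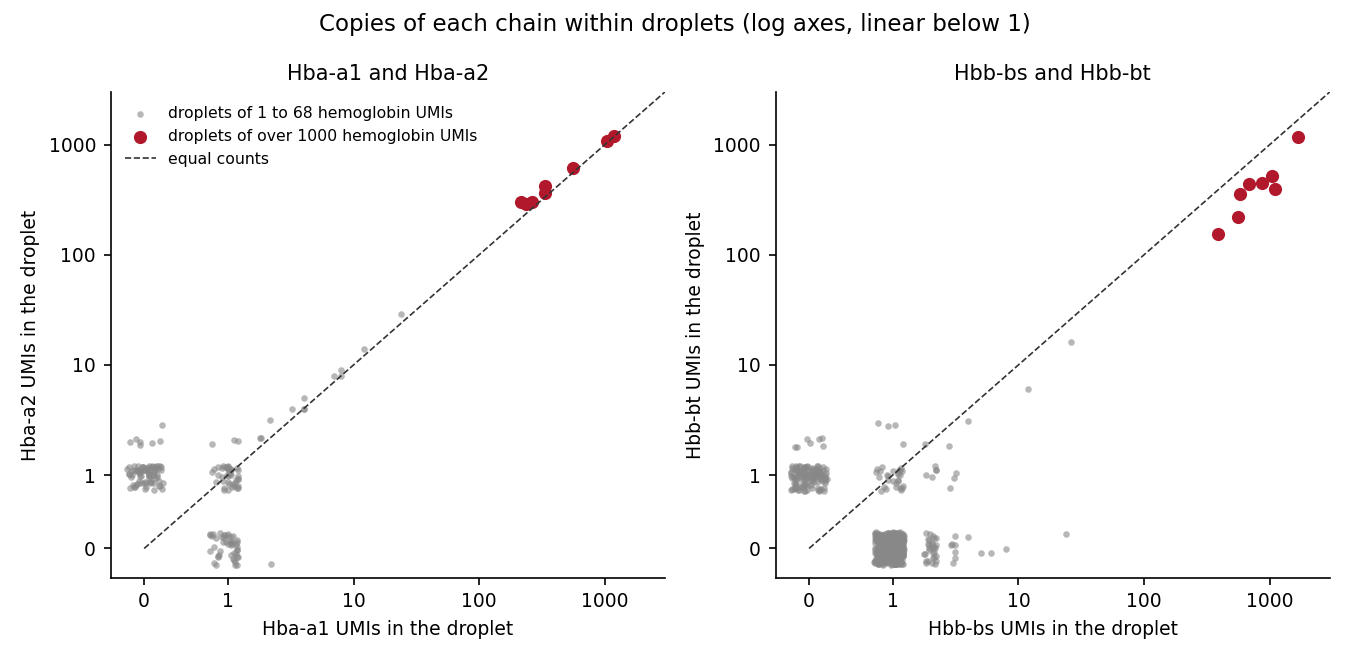
UMIs of *Hba-a2* against *Hba-a1* (left) and of *Hbb-bt* against *Hbb-bs* (right) in each droplet with a UMI of the pair, on log axes that are linear below 1, with counts below 4 spread slightly. The 8 droplets of over 1000 hemoglobin UMIs (red) lie close to the line of equal counts for the α copies, just above it, and below it for the β copies, and most other droplets (grey) hold 1 copy only.

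Levels per mouse were set by the same 8 droplets in the diet groups and by few UMIs in most other mice. Levels are given in counts scaled to a fixed total (CPM), the UMIs of a gene relative to all UMIs of the mouse. In control mice, *Hba-a1* stood at 7.74, 0.390 and 0 CPM in replicates 1, 2 and 3. In Phase I ROP mice it stood at 4.84, 12.1 and 1.15 CPM. On the ω-3 diet it stood at 0.881 and 85.0 CPM, and on the ω-6 diet at 2.57, 307.1 and 406.5 CPM. The 3 mice with hemoglobin-rich droplets were the 3 highest, and without those droplets they fell to 1.39 CPM (ω-3 replicate 2), 11.4 CPM (ω-6 replicate 2) and 0.230 CPM (ω-6 replicate 3).

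*Hba-a2* followed *Hba-a1* closely. It stood at 10.3, 0.390 and 0.297 CPM in control and at 6.35, 13.3 and 2.29 CPM in Phase I ROP mice. It stood at 1.23 and 106.0 CPM on the ω-3 diet and at 2.76, 330.7 and 438.7 CPM on the ω-6 diet. The order of the 11 mice was the same for both α copies (Spearman rank correlation of 1 over 11 mice, a description of copies that share reads).

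*Hbb-bs*, the most abundant of the 4 in 10 of 11 mice, stood at 20.3, 0 and 0.890 CPM in control and at 8.17, 35.9 and 9.75 CPM in Phase I ROP mice. It stood at 3.70 and 173.7 CPM on the ω-3 diet and at 8.48, 474.9 and 723.5 CPM on the ω-6 diet. *Hbb-bt* stood at 6.27, 0 and 0 CPM in control and at 2.42, 12.5 and 4.30 CPM in Phase I ROP mice. It stood at 0.176 and 92.5 CPM on the ω-3 diet and at 5.53, 197.0 and 456.1 CPM on the ω-6 diet. A level of 0 in a control library allows up to 1.17 CPM in replicate 2 and 0.890 CPM in replicate 3, taking 3 UMIs as the limit, which covers counting error only. Across the 11 mice, the rank correlation between members was 0.955 to 1.

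Summed over the 4 genes, mice of the same group differed widely. Control mice had 121, 2 and 4 hemoglobin UMIs (44.6, 0.779 and 1.19 CPM), and Phase I ROP mice had 72, 189 and 61 (21.8, 73.7 and 17.5 CPM). The ω-3 diet had 34 and 2980 (5.99 and 457.3 CPM), and the ω-6 diet had 98, 8158 and 8821 (19.3, 1310 and 2025 CPM). Without the 8 droplets, ω-3 replicate 2 had 109 UMIs (16.8 CPM), and ω-6 replicates 2 and 3 had 495 and 50 (79.6 and 11.5 CPM). In that order, ω-6 replicate 2, Phase I ROP replicate 2 and control replicate 1 were the highest mice, from 3 groups, and control replicates 2 and 3 the lowest.

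**Figure D3:**
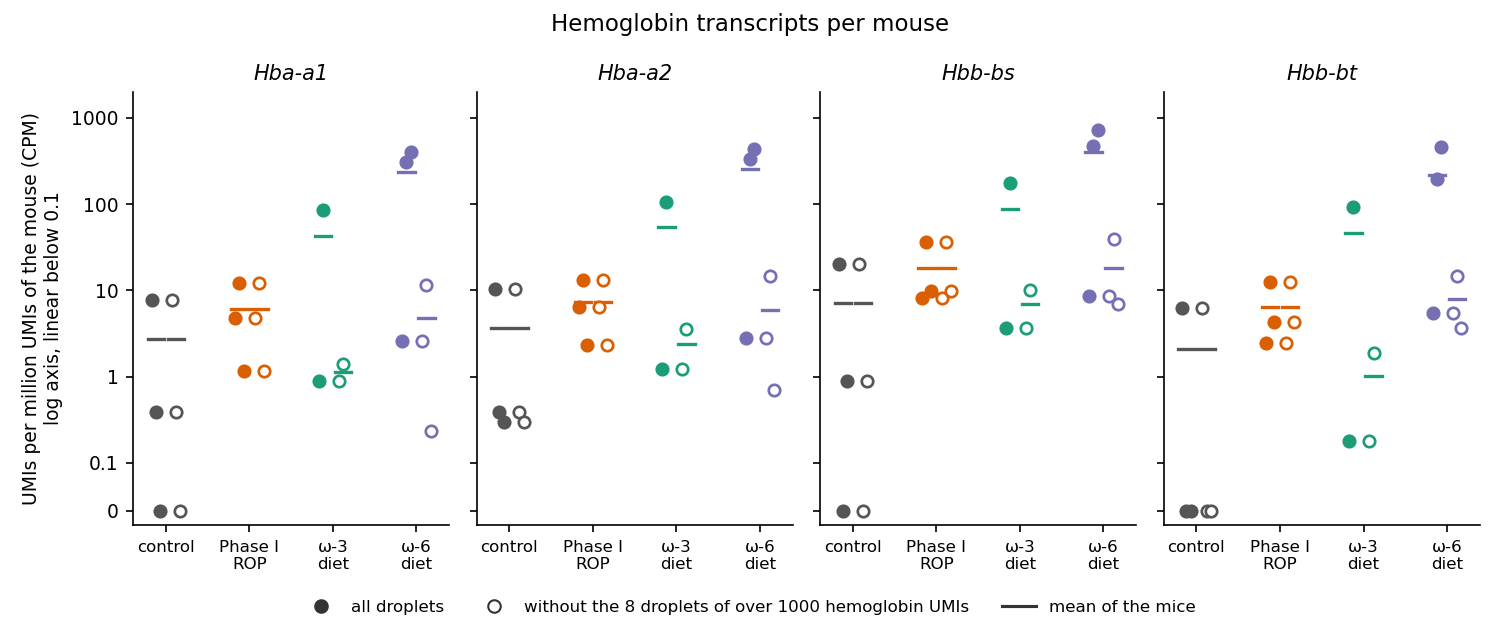
CPM of each gene in each mouse (points) by group, on a log axis that is linear below 0.1, with all droplets (filled) and without the 8 droplets of over 1000 hemoglobin UMIs (open); bars are means of the 2 or 3 mice of a group. The 3 highest filled points are from ω-3 replicate 2 and ω-6 replicates 2 and 3. Without the 8 droplets these mice lie in or close to the range of the others. ω-6 replicate 2 then stays highest for *Hba-a2*, *Hbb-bs* and *Hbb-bt* (14.5, 38.9 and 14.8 CPM). Phase I ROP replicate 2 has 13.3, 35.9 and 12.5 CPM.

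Littermates with Phase I ROP and controls were compared to ask whether hyperglycemia changed the transcripts in the retina. Mean levels were higher in Phase I ROP for all 4 genes, but the spread between mice was as large as the difference. *Hbb-bs* averaged 17.9 CPM ± 15.6 (SD, n = 3) in Phase I ROP and 7.05 CPM ± 11.5 (SD, n = 3) in control, and control replicate 1 was above 2 of 3 Phase I ROP mice. The groups overlapped for 4 of 4 genes, where 31.6% of the 22572 genes with at least 10 UMIs were higher in every Phase I ROP mouse than in any control and 15.4% were lower. By edgeR's quasi-likelihood test on UMIs summed per mouse, with Benjamini-Hochberg adjustment over all 15964 genes tested, the log2 fold changes were 0.87 (SE 0.98) for *Hba-a1*, 0.72 (SE 0.89) for *Hba-a2*, 1.06 (SE 0.91) for *Hbb-bs* and 1.33 (SE 0.96) for *Hbb-bt*. The adjusted p-values from edgeR were 0.489, 0.529, 0.358 and 0.273, so 0 of 4 genes passed at 0.05, where 48.1% of all genes tested did.

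This outcome rested on control replicate 1, which carried 121 of the 127 control UMIs. Without that mouse, 4 of 4 genes passed, with log2 fold changes of 4.55, 3.98, 4.74 and 7.14 and edgeR adjusted p-values of 0.0229, 0.0107, 0.00425 and 0.00775. The share of all genes that passed in that fit is not given here, so 4 of 4 has no background beside it. Without Phase I ROP replicate 2, the highest of its group, the log2 fold changes were -0.01, 0.07, 0.17 and 0.52 and no gene passed. The 2 remaining controls held 6 UMIs between them, so the size of the change without replicate 1 is poorly known.

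The comparison of the ω-6 with the ω-3 diet asks whether the fatty acid supply changed the transcripts in hyperglycemic littermates. All 4 genes had higher means on the ω-6 diet, with *Hbb-bs* at 402.3 CPM ± 363.0 (SD, n = 3) against 88.7 CPM ± 120.2 (SD, n = 2), and both groups held mice with and without hemoglobin-rich droplets. The groups overlapped for 4 of 4 genes, where 7.31% of 23761 genes were higher in every mouse of the ω-6 group and 18.1% lower. The edgeR log2 fold changes, ω-6 minus ω-3, were 2.54 (SE 1.53) for *Hba-a1*, 2.33 (SE 1.54) for *Hba-a2*, 2.25 (SE 1.49) for *Hbb-bs* and 2.31 (SE 1.52) for *Hbb-bt*. The adjusted p-values from edgeR were 0.709, 0.727, 0.727 and 0.727, and 0 of 4 genes passed. The background was 0% of 18821 genes tested, with 1328 at an unadjusted p under 0.05 and 20 called by DESeq2.

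Without the 8 droplets, which were set apart after their counts were seen, the log2 fold changes were 2.16, 1.41, 1.48 and 3.00, with edgeR adjusted p-values of 0.677 to 0.726. *Hbb-bt* was then higher in each of the 3 mice on the ω-6 diet (5.53, 14.8 and 3.68 CPM) than in both on the ω-3 diet (0.176 and 1.85 CPM), as were 7.41% of the 23752 genes with at least 10 UMIs. The other 3 genes overlapped between the diets. *Hbb-bt* made up 39.4%, 27.5% and 34.8% of β UMIs on the ω-6 diet and 4.55% and 15.6% on the ω-3 diet, the latter from 22 and 77 β UMIs. With all droplets its share in ω-3 replicate 2 was 34.8%, within the 29.3% to 39.4% of the ω-6 mice.

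Outside the 8 droplets, hemoglobin UMIs were found in every large retinal class, at shares that varied more between mice than between classes. To compare classes of different depth, droplets were thinned to 1000 UMIs each and shallower ones were left out (142 to 1152 per mouse, among them 4557 rod droplets). The median share of droplets with a hemoglobin UMI, over mice with at least 50 droplets of the class, was then 1.58% in rods (11 mice, 0.254% to 5.84%), 1.55% in Müller glia (10 mice, 0% to 7.70%) and 1.18% in cones (8 mice, 0.737% to 3.83%). It was 1.04% in bipolar cells (11 mice, 0% to 5.60%) and 0.997% in amacrine cells (11 mice, 0% to 5.17%), so the ranges of the classes overlapped. Unthinned, the median was lowest in rods, at 2.36% (0.381% to 8.79%), the class with the fewest UMIs per droplet (median 1054), and highest in amacrine cells, at 3.85% (0% to 13.4%), the class with the most (median 3051.5).

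Classes of 1 mouse also differed, by a factor that varied between mice. In ω-6 replicate 2 the thinned share ran from 3.83% in cones to 6.30% in Müller glia, and in Phase I ROP replicate 2 from 3.67% in cones to 7.70% in Müller glia. In control replicate 1 it ran from 2.63% in amacrine cells to 4.24% in bipolar cells. In ω-3 replicate 1 it ran from 0.254% in rods to 1.15% in cones, below every class of those 3 mice. The widest ratio among mice with no class at 0% was in ω-3 replicate 2, from 0.262% in Müller glia to 2.10% in rods, and in Phase I ROP replicate 1 the share ran from 0.335% in amacrine cells to 1.38% in Müller glia. In control replicates 2 and 3 no class exceeded 0.858%. Over the 8 mice with at least 50 droplets in all 5 classes, 83.4% of the sum of squares of the log2 share (with 0.1 percentage points added) lay between mice and 1.54% between classes, as a description. Rods were above amacrine cells in 10 of 11 mice, by a median of 0.467 percentage points, and rods and Müller glia were each higher in some mice (4 and 6 of 10).

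**Figure D4:**
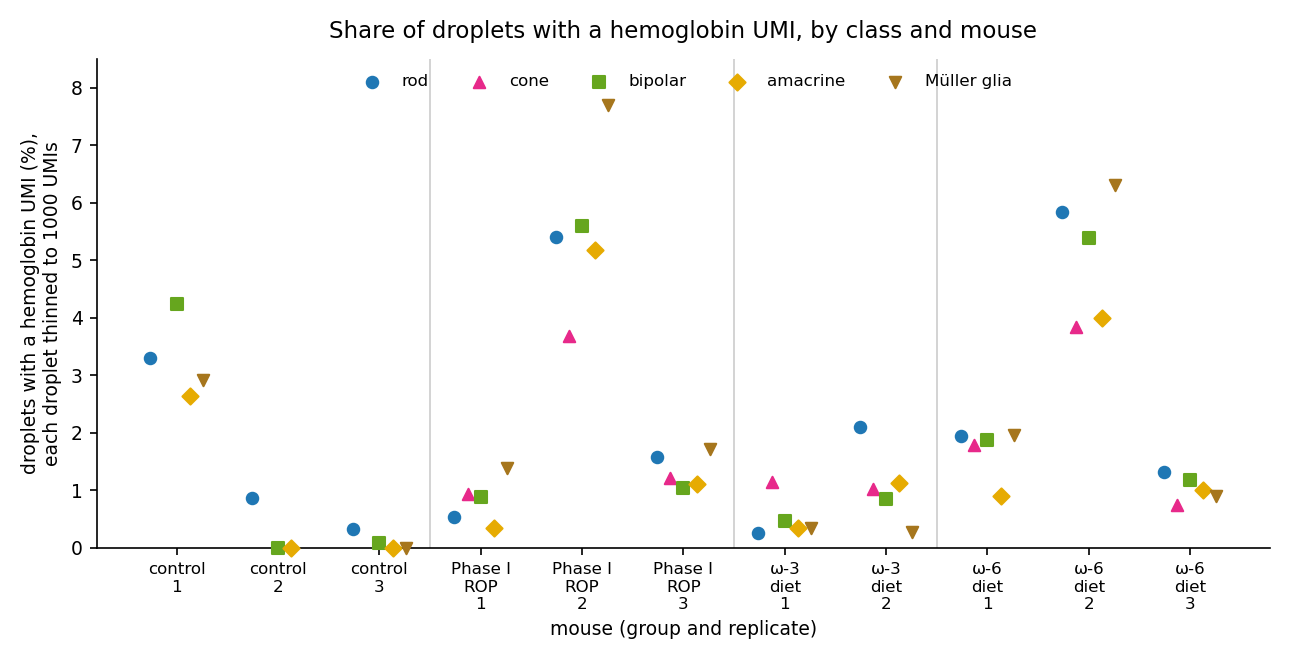
Share of droplets with at least 1 hemoglobin UMI (y, percent, after thinning each droplet to 1000 UMIs, without the 8 droplets of over 1000 hemoglobin UMIs) for each mouse (x) and class (symbols), where a mouse had at least 50 droplets of the class. Control replicate 1, Phase I ROP replicate 2 and ω-6 replicate 2 were high in all classes shown, at 2.63% or more, and no class of another mouse exceeded 2.10%.

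Each member was seen in each of these 5 classes. *Hbb-bs* had the highest median over mice of the 4 genes in 4 of the 5 classes, with 10.7 CPM in rods, 8.09 CPM in bipolar cells, 7.83 CPM in cones and 7.54 CPM in amacrine cells. In Müller glia its median was 4.00 CPM, below the 6.41 CPM of *Hbb-bt*. *Hba-a1* had a median of 2.82 CPM in rods, 1.96 CPM in Müller glia, 0.873 CPM in cones and 0 CPM in bipolar and amacrine cells. Its highest value, 50.2 CPM, was in Müller glia of Phase I ROP replicate 1, where 57 of 72 hemoglobin UMIs were in Müller glia (178.9 CPM), beside 3.18 to 9.63 CPM in its other 4 large classes. That mouse had 2 Müller glia droplets with 22 and 13 hemoglobin UMIs and none of *Hbb-bt* in either.

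Hemoglobin UMIs were seen in 0% to 13.2% of the bipolar, amacrine and Müller glia droplets of a mouse. The part of free RNA from other cells in these UMIs was not tested, and no share is read here as expression by a class.

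Among the small classes, endothelial droplets, from the cells that line blood vessels, had the highest hemoglobin level outside the 8 droplets when mice were pooled. They had 133 UMIs in 10 of 112 droplets (8.93%, median of 4389.5 UMIs per droplet), or 200.3 CPM, beside 33.2 CPM in rods. Of these, 105 UMIs were in ω-6 replicate 2 and 26 in control replicate 1, and 3 droplets with 68, 33 and 25 hemoglobin UMIs held most of them. With 2 to 32 endothelial droplets per mouse, no test was made. Astrocytes had 8 UMIs, all in ω-6 replicate 2. Pigment epithelium had 5 UMIs, microglia 3 and horizontal cells 1, and ganglion cells had 12 UMIs in 11 of 96 droplets at a median of 13618.5 UMIs per droplet.

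Tests by class gave few values, because the members were mostly too low to pass edgeR's filter on low counts. In Phase I ROP against control, 0 of 20 pairs of gene and class passed that filter, where the test called 45.3% of all genes for bipolar, 38.8% for amacrine, 38.1% for rod, 18.8% for cone and 10.8% for Müller glia droplets. Between the diets, 6 of 20 did, and 0 of 6 were called. In rods, where 0.0159% of 12602 genes were called, the log2 fold changes (ω-6 minus ω-3) were 9.01 (SE 1.85) for *Hba-a1*, 7.73 (SE 1.70) for *Hba-a2*, 7.15 (SE 1.56) for *Hbb-bs* and 9.02 (SE 1.84) for *Hbb-bt*, each with an edgeR adjusted p of 0.326. They rested on the 6 low-gene droplets that clustered with rods. Without the 8 droplets the values were 1.29, 1.17 and 2.63 for *Hba-a2*, *Hbb-bs* and *Hbb-bt*, with edgeR adjusted p-values of 0.625, 0.519 and 0.331, and *Hba-a1* no longer passed the filter.

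In amacrine cells the difference ran the other way and rested on 1 droplet. *Hbb-bs* stood at 469.5 CPM in amacrine droplets of ω-3 replicate 2 and at 2.29 CPM in those of replicate 1, beside 7.21 to 32.0 CPM in the ω-6 mice. By edgeR the difference on the log2 scale was -3.71 (SE 1.01) for *Hbb-bs* and -4.73 (SE 1.17) for *Hbb-bt*, with edgeR adjusted p-values of 0.422 and 0.371, where 0% of 13121 genes were called, with 1298 at an unadjusted p under 0.05. Without the hemoglobin-rich droplets it was 1.78 for *Hbb-bs* (edgeR adjusted p of 0.489), and *Hbb-bt* did not pass the filter.

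Other genes of the globin family and of heme metabolism were read from lists. Rods were 241 of 925, 195 of 787 and 477 of 1493 droplets in the control mice. In the Phase I ROP mice they were 1049 of 2039, 660 of 1397 and 1277 of 2312. Values over all cells carry this mix of classes, and its part in them was not tested. Of 10 other globins, 2 had a row in the matrix, neuroglobin (*Ngb*), a globin of neurons, and cytoglobin (*Cygb*), a globin of many tissues. *Cygb* stood at 61.7 to 118.5 CPM and *Ngb* at 1.77 to 4.68 CPM, so that neither had the spread of the 4 members, and neither had a UMI in the 8 droplets. In Phase I ROP against control, *Cygb* had a log2 fold change of 0.35 (edgeR adjusted p = 0.0534) over all cells. On the same scale it rose by 0.70 in bipolar and 0.63 in amacrine cells (edgeR adjusted p = 0.0232 and 0.00393).

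The 12 genes of heme synthesis and its mitochondrial carriers were all in the matrix. In Phase I ROP against control, over all cells, 11 were tested, 3 rose and 1 fell, beside 24.7% and 23.4% of all genes, and their median log2 fold change was 0.14, beside 0.00 over all genes tested. Of the 4 most abundant, *Cpox* fell by 0.90 on the log2 scale (edgeR adjusted p = 0.00668), the glycine carrier *Slc25a38* rose by 0.60 (edgeR adjusted p = 0.0268), and *Fech*, which puts iron into heme, and *Urod* had 0.24 and -0.52 (edgeR adjusted p = 0.321 and 0.0546). The other genes that rose, named after their values were seen, were *Slc25a37* (1.98, edgeR adjusted p = 0.000779) and *Abcb10* (0.79, edgeR adjusted p = 0.0277). *Slc25a37* had 5, 9 and 15 UMIs in the 3 control libraries, lowest in the control with the most hemoglobin UMIs.

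Of 18 erythroid genes, 9 had a row in the matrix, all 9 with UMIs. *Alas2* had UMIs in 6 of 11 mice: 1 in control replicate 1, 1 and 2 in Phase I ROP replicates 2 and 3, 13 in ω-3 replicate 2, and 16 and 29 in ω-6 replicates 2 and 3. It was at 0 in ω-6 replicate 1 and ω-3 replicate 1, which had no hemoglobin-rich droplet. The red cell factor *Klf1* had 14 UMIs and *Hemgn* 11 in all libraries, with 1 and 0 in the 8 droplets. The membrane skeleton gene *Epb42* had 80 UMIs and the ammonium channel gene *Rhag* 44, with 0 in the 8 droplets for both. *Bpgm*, *Tfrc* (the transferrin receptor) and *Ermap* had UMIs in 11 of 11 mice and *Fam46c* in 10. In the order given, 63 of 4598, 9 of 3038, 0 of 576 and 25 of 127 of their UMIs were in the 8 droplets. In Phase I ROP against control 3 erythroid genes were tested and 1 was called, *Tfrc*, which rose by 0.62 (edgeR adjusted p = 0.0137) on the log2 scale over all cells, beside 48.1% of all genes called. By class, *Tfrc* rose in rod (1.39), bipolar (0.82) and amacrine droplets (0.68), with edgeR adjusted p-values of 0.00318, 0.00724 and 0.0259. It was not called in cones (-0.64) or Müller glia (0.12). *Bpgm* rose in rod droplets (1.11, edgeR adjusted p = 0.00868) but not over all cells (0.03, edgeR adjusted p = 0.876). Nor was *Bpgm* called in cone (-0.25), bipolar (-0.14), amacrine (-0.30) or Müller glia droplets (0.05). In rod, bipolar and amacrine droplets 38.1%, 45.3% and 38.8% of all genes were called. Between the diets 6 erythroid genes were tested and 0 called, *Alas2* with a log2 fold change of 1.59 (edgeR adjusted p = 0.768).

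Genes that clear heme and hemoglobin were called in both directions. Of 11, 10 were in the matrix, and in Phase I ROP against control 9 were tested, 1 rose and 2 fell, beside 24.7% and 23.4% of all genes, with a median log2 fold change of -0.08. The 4 most abundant, the ferritin chains *Fth1* and *Ftl1*, the heme oxygenase *Hmox2* and *Lrp1*, had log2 fold changes of 0.32, -0.00, -0.08 and 0.42, none called over all cells. Those called, named after their values were seen, were the inducible heme oxygenase *Hmox1*, which rose by 1.37 (edgeR adjusted p = 0.0152), *Blvra*, which fell by 0.84 (edgeR adjusted p = 0.00854), and *Cd163*, the hemoglobin scavenger receptor of macrophages, which fell by 3.38 (edgeR adjusted p = 0.00116), all on the log2 scale. *Cd163* had 29, 25 and 29 UMIs in the control libraries and 9, 0 and 1 in the Phase I ROP libraries. It also fell in rod droplets, by 5.08 (edgeR adjusted p = 3.66e-05), where 38.1% of all genes were called. Its UMIs were thus not confined to droplets that resemble microglia. In bipolar droplets, where 45.3% of all genes were called, 5 clearance genes were tested. There *Lrp1* rose by 1.24 (edgeR adjusted p = 0.0494), and *Fth1* and *Blvra* fell by 0.43 and 1.37 (edgeR adjusted p = 0.0114 and 0.0197). No clearance gene was called in cone, amacrine or Müller glia droplets. Between the diets, 0 of 12 heme synthesis, 0 of 8 clearance and 0 of 2 other globin genes tested were called.

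Markers of other blood cells were nearly absent from the 8 droplets. Of 17 platelet and white cell genes, 5 were in the matrix, and 1 of their UMIs was in the 8 droplets, of *Gp1bb*. *Ptprc*, which encodes the leukocyte antigen CD45, had 5, 11 and 22 UMIs in the control libraries and 28, 20, 8, 21 and 11 in the diet libraries, ω-3 first. *Gp1bb* stood at 38.4 to 65.98 CPM, *Itga2b* at 2.15 to 5.07 CPM and *Ms4a1* at 1.77 to 4.67 CPM. In Phase I ROP against control 0 of 3 tested were called, and between the diets 0 of 5.

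The genes whose level per mouse was ranked most like the summed hemoglobin, among 11641 genes with a mean of at least 10 CPM, were *BC085271* (Spearman rank correlation of 0.891), *Asphd2* (0.873), *Tmem109* and *Vgf* (0.845 each) and *Thoc3* (0.836), each over 11 mice. Ranks of 11 mice in 4 groups are shared by many genes, and these values are a description. Over droplets within a mouse, the nearest genes had mean Pearson correlations of 0.125 (*Gda*), 0.0765 (*Fam46c*), 0.0677 (*Pcdhb13*), 0.0666 (*Gm10616*) and 0.0664 (*Fam214b*), which in counts this sparse is too weak to single out any gene.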

How the data were processed

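The deposited values were raw UMI counts, 1 column per droplet. Per the study's methods, bcbio-nextgen with umis left out barcodes of fewer than 500 reads, and Rapmap assigned reads to GENCODE M23 transcripts of GRCm38. Droplets with more than 300 genes were clustered with Seurat 5.3.0 (2000 variable genes, 75 components, resolution 0.2), and clusters were named from fixed markers. No doublet caller was run. UMIs were summed per mouse and class (at least 10 droplets per mouse) and compared with edgeR 4.0.16 in R 4.3.3 (quasi-likelihood test, TMM, default filter, adjusted p under 0.05), using the 2 groups compared. DESeq2 1.42.0 was an alternative. The labels do not say whether mice of a group shared handling, so p-values measure the spread between these samples.

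The members and lists were chosen with earlier results of these data known. Named genes were all members, the 4 most abundant of each list, and the 5 most alike across mice and droplets. Each test was tried on simulated data. Other scalings, filters and left-out mice were tried as alternatives, and leaving out the 8 hemoglobin-rich droplets was added after seeing the data.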

Additional observations from a re-analysis of the deposited data

How the results depend on the processing

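Counts of members called (0 of 4 over all cells in both comparisons, 0 of 20 pairs of gene and class in Phase I ROP against control, 0 of 20 between the diets) changed as follows. Over all cells, leaving out each mouse in turn gave 0 to 4 in Phase I ROP against control, where control replicate 1 decided, and 0 between the diets. By class it gave 0 to 1 (*Hbb-bs* in Müller glia without Phase I ROP replicate 3) and 0 to 4, the latter in rods without ω-6 replicate 1 or in amacrine cells without ω-3 replicate 1. Without a filter on low counts 2 and 8 pairs were called by class, with all 4 groups in 1 fit 1 and 4, and between the diets DESeq2 called 4, all in rods. A replicate block called 4 over all cells and 6 by class between the diets and 0 in Phase I ROP against control, but mice of the same number did not deviate together (correlations of -0.0171, 0.102 and 0.145 in one comparison, 0.0749 and 0.260 in the other), so the numbers do not pair the mice. Over all genes the diets gave 0 calls by edgeR, 20 by DESeq2, 75 with the replicate block and 2 without ω-6 replicate 3. Where 1 ω-3 mouse was left, it was assumed to vary like the ω-6 mice. For these alternatives, the share of all genes called is not given here for the fits by class or for Phase I ROP against control. Counts of members called there have no background beside them. The cause of these changes was not tested.

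Of single genes, *Hba-a1* over all cells in Phase I ROP against control turned from 0.87 to between -0.0125 and 4.55 when a mouse was left out. Between the diets, *Hba-a2* in rods turned from 7.73 to -0.0064 without droplets of 10 or more hemoglobin UMIs, *Hbb-bs* in amacrine cells from -3.71 to 1.29 without those and to 1.78 without the 8 droplets, and leaving out 1 mouse gave -4.85 to 2.89 for it and -5.71 to 5.84 for *Hbb-bt*. The other alternatives kept the direction.

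The mean share of droplets with a hemoglobin UMI on the ω-3 diet went from 2.18% to 0.431% with at least 2 UMIs, and the α to β ratio from 0.632 to 0.481 without the 8 droplets or those of 10 or more, and on the ω-6 diet from 0.682 to 0.316 and 0.241. With a mouse left out the shares ran over 0.197% to 4.404% (control), 1.76% to 5.61% (Phase I ROP), 1.09% to 3.28% (ω-3) and 3.07% to 7.39% (ω-6), and the ratios over 0.333 to 0.681, 0.385 to 0.791, 0.545 to 0.718 and 0.548 to 0.833. Depth limits each level below about 1 CPM, which rested on 1 to 5 UMIs.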

Other observations

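Each inDrop barcode joins 2 parts drawn from fixed sets, so droplets of a library can share 1 part. In the 3 mice with hemoglobin-rich droplets, the share of droplets with a hemoglobin UMI, among droplets sharing a part with one of these and then among the rest, was 4 of 29 (13.8%) against 3.08% in ω-3 replicate 2, 11 of 32 (34.4%) against 11.1% in ω-6 replicate 2, and 5 of 19 (26.3%) against 2.65% in ω-6 replicate 3. These shares were found after seeing the data and no test was made. Median UMIs of the 2 sets were 1653 and 1687, 2026 and 1940, and 3748 and 2198. The droplets that share a part held 5, 22 and 14 hemoglobin UMIs, with at most 7 in 1 droplet.

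Barcodes of 300 or fewer genes, 34 in all, held 2 hemoglobin UMIs in 1 of them. Of the 8 hemoglobin-rich barcodes, 2 also occurred in another library.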
